A study of Drosophila melanogaster with 5 samples.

Results

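The genes described here encode the G protein-coupled receptors of *Drosophila* for acetylcholine, glutamate, GABA and adenosine. They were chosen by name, with the identifiers that the study used, and they are the muscarinic receptor genes *mAChR-A*, *mAChR-B* and *mAChR-C*, the metabotropic glutamate receptor gene *mGluR*, the GABA-B receptor genes *GABA-B-R1*, *GABA-B-R2* and *GABA-B-R3*, and the adenosine receptor gene *AdoR*. These are 8 of the 17453 gene identifiers in the count tables. RNA was sequenced from 5 single cells of the PI (pars intercerebralis), a cluster of peptidergic neurons at the dorsal midline of the fly brain that carries output of the circadian clock. Of these, 1 is labelled as discarded, for what the methods of the study call indiscriminate mapping, and is called the excluded cell, whereas the other 4 were kept and are called cells 1 to 4. Each cell expressed GFP, as UAS-mCD8::GFP under kurs58-GAL4 or as UAS-nlsGFP under C767-GAL4, drivers that also label cells outside the PI. All flies carried Dilp2mCherry, which marked the insulin-producing cells, and GFP-positive cells beside these were collected by pipette. The labels do not say which driver labeled which cell. They give each cell its own animal, whereas the series record counts 4 animals. There were no age, sex or treatment groups, and the driver genotypes cannot be assigned to cells. No test between conditions was therefore possible, and the 5 cells are described one by one.

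Unlike ligand-gated channels, these receptors act through heterotrimeric G proteins and set the excitability of a neuron on a slower time scale. In flies, *mAChR-A* couples to Gq and the release of calcium, *mAChR-B* and *mGluR* couple to Gi/o and lower cAMP, and *AdoR* raises cAMP. A GABA-B receptor is a dimer, in which the R1 subunit binds GABA and the R2 subunit brings the dimer to the membrane and engages the G protein. R3 is a further subunit type found in insects. In the fly brain acetylcholine is the main excitatory transmitter, glutamate and GABA are both released onto neurons that shape rest and activity, and extracellular adenosine is a signal of metabolic state. The study used these libraries to find signaling genes that PI output cells express, receptors and ion channels among them, as candidates for a knockdown screen.

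Expression is given as log2(RPM + 1), where RPM is the reads of a gene per 1000000 reads assigned to genes by the aligner STAR, and a gene with at least 1 RPM is counted as expressed. The assigned reads were 4913151 in the excluded cell and between 3451331 and 4441952 in the kept cells. A count of 0 allows a true level of up to 3 reads as a 1-sided 95% limit. This equals 0.611 RPM in the excluded cell and at most 0.869 RPM in the kept cells. Ranges in parentheses after an expression value are exact Poisson 95% intervals of the reads in that cell. For 0 reads this interval reaches higher than the limit of 3 reads, up to 1.07 RPM in cell 2. Intervals and limits cover counting error only, since the RNA was amplified in 3 rounds and reads are not independent molecules. Fewer transcripts in the cell and loss of transcripts before amplification cannot be told apart.

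The excluded cell also differed from the kept cells in its markers. The summed level of 9 neuronal marker genes was 16972 RPM in the excluded cell and between 1194 and 5411 RPM in the kept cells, all 9 genes being at or above 1 RPM in the excluded cell and in cells 2, 3 and 4, and 6 of them in cell 1, where *brp* had 0 reads. Summed levels of 9 photoreceptor genes were 578 RPM in the excluded cell and between 1981 and 46076 RPM in the kept cells, with 8 of the genes at or above 1 RPM in the excluded cell and in cell 3 and all 9 in cells 1, 2 and 4. Fat body genes followed the same direction, with 1008 RPM in the excluded cell and between 9870 and 45252 RPM in the kept cells over 6 genes, 5 of them at or above 1 RPM in the excluded cell and 4 to 5 in the kept cells, of which *Fbp1* had 0 reads in every cell. For 7 glial genes the sums were 1733 RPM in the excluded cell, with all 7 at or above 1 RPM, and between 754 and 4973 RPM in the kept cells, with 4 to 6 of them, and *repo*, the defining glial factor, had 37 reads in the excluded cell, against 1, 0, 0 and 300 reads in cells 1 to 4. In cell 2 the other 6 glial genes were all at or above 1 RPM. For 4 hemocyte genes they were 5.90 RPM in the excluded cell and between 65.5 and 440 RPM in the kept cells, with 2 of the genes at or above 1 RPM in the excluded cell and 2 to 4 in the kept cells. *Dh44*, a peptide of PI output cells, had 1871 reads in the excluded cell, against 436, 506, 538167 and 761 reads in cells 1 to 4, so that only cell 3 carried it as a dominant transcript. *SIFa*, the other PI output peptide, had 489 reads in the excluded cell and 80 reads in cell 3, and 0 reads in cells 1, 2 and 4. The insulin-like peptide gene *Ilp2* had 768 reads in the excluded cell and 4, 46, 8179 and 1 reads in cells 1 to 4. *Ilp3* and *Ilp5* were also highest in cell 3, with 254 and 143 reads. Cell 3 was thus highest in peptides of the insulin-producing cells as well, and their source was not tested.

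In the kept cells most values of these receptor genes were below the threshold, although 5 of the 8 genes passed it in some cell. Of the 32 values for 8 genes in 4 cells, 6 were at or above 1 RPM (18.75%), compared with 27.7% of the corresponding values over all genes. There were 19 values with 0 reads and 6 with a single read, none with 2 or 3, and 7 with 4 reads or more. In these counts a value thus held either at most 1 read or at least 4, the lowest of the latter being *AdoR* in cell 4. Single reads allow levels above the threshold, up to 1.61 RPM for *mAChR-A* and *GABA-B-R1* in cell 2. The 0 reads of *mAChR-A* in cell 3 leave out 298 reads that also lay on an overlapping gene, described below. In at least 1 kept cell, 5 of the 8 genes were expressed, which is 62.5% against 44.3% of all genes. Of these 5, 4 were expressed in a single kept cell and *GABA-B-R1* in 2. No gene of the group was expressed in all 4 kept cells, whereas 11.3% of all genes were. Without cell 4 the count was 3 of 24 values in 3 genes, so that the share of genes expressed in a kept cell was then below that of all genes (39.4%). By STAR's unstranded counts, 1 kept cell lay far above the other 3 for *mAChR-A*, *mGluR* and *GABA-B-R2*. Among the genes expressed in a kept cell, 26.4% had 1 cell that far from the other 3 in either direction.

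**Figure D1:**
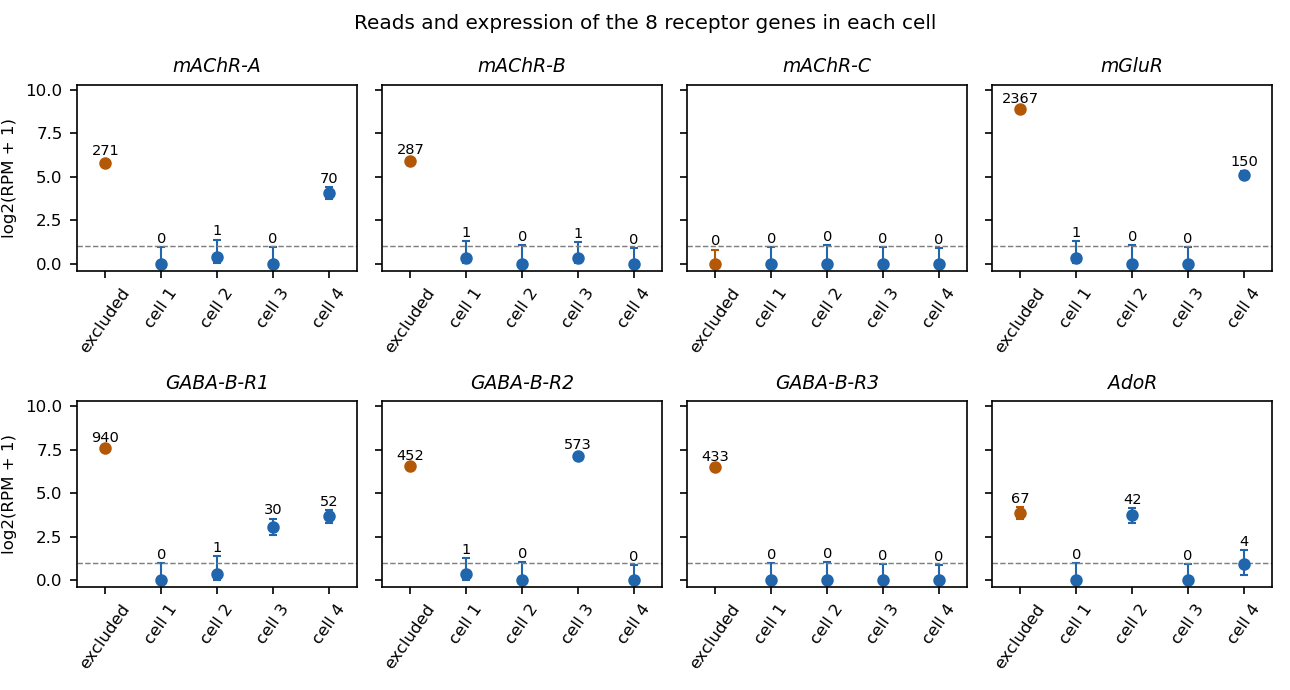
Expression of each receptor gene as log2(RPM + 1) on the y axis in the excluded cell (orange) and cells 1 to 4 (blue). Bars are exact Poisson 95% intervals, the number above each point is its reads and the dashed line is 1 RPM. The excluded cell was above the line for 7 genes, while the kept cells had 6 values above it in all.

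The excluded cell expressed 7 of the 8 genes, against 0, 1, 2 and 3 of them in cells 1 to 4. Across all genes, 40.7% were expressed in the excluded cell, and 23.7%, 34.5%, 17.7% and 35.1% in cells 1 to 4. The summed level of the 8 genes was 980 RPM in the excluded cell, and 0.766, 12.7, 148 and 62.1 RPM in cells 1 to 4. In total, 6 of the 8 genes were higher in the excluded cell than in every kept cell (75%), as were 38.8% of all genes with a read in any cell. The 2 shares differ in their base, since the 8 include *mAChR-C*, which had 0 reads in every cell. Among the 6 is *AdoR*, whose RPM was 1.12 times that of cell 2 (0.751 to 1.69), so that these 2 cells could not be separated. Of the 7 genes it expressed, *mAChR-B* and *GABA-B-R3* were below 1 RPM in every kept cell, as were 15.4% of all genes it expressed. The neuronal markers given above had the same order of the 5 cells as this sum, and their part in the result was not tested. Expressed as a percentage of the reads of the 9 neuronal markers, a denominator chosen after seeing the data, the 8 genes had 5.78% in the excluded cell and 0.0642%, 0.456%, 2.74% and 1.24% in cells 1 to 4. With this denominator 5 genes remained higher in the excluded cell, and *AdoR* was the gene that did not. For *mAChR-A*, 1 of the 5, the values were close, at 0.325% in the excluded cell and 0.316% in cell 4.

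**Figure D2:**
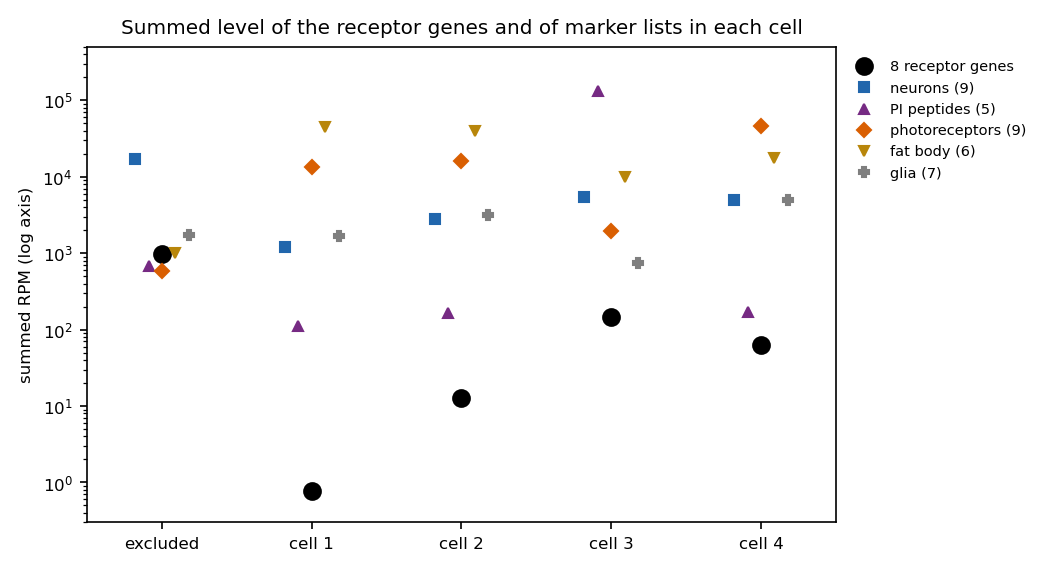
Summed RPM on a log axis for the 8 receptor genes (black) and for lists of neuronal, PI peptide, photoreceptor, fat body and glial genes, with the number of genes in parentheses, in the excluded cell and cells 1 to 4. The receptor genes ran from 0.766 RPM in cell 1 to 980 RPM in the excluded cell, which also had the highest neuronal sum and the lowest photoreceptor and fat body sums.

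Among the muscarinic genes, *mAChR-A* (FBgn0000037) lies on chromosome 2R between 24378630 and 24390294 (minus strand). The excluded cell held 271 reads of it, or 5.81 (5.64 to 5.98) in log2(RPM + 1), against 0, 1, 0 and 70 reads in cells 1 to 4. The 70 reads of cell 4 gave 4.07 (3.73 to 4.39). Only cell 4 of the kept cells was above the threshold, and its interval did not overlap that of the excluded cell, in which RPM was 3.50 times higher (2.68 to 4.62, exact binomial 95% interval). The other 3 cells could not be separated from each other. The mean over the kept cells was 1.11 ± 1.98 (SD, n = 4), and 0.12 without cell 4.

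These counts leave out reads that fall on more than 1 gene, and the last 111 bases of *mAChR-A*, all within its 3′ UTR, overlap the 3′ end of *CG13578* on the opposite strand. The libraries have reads mostly at the 3′ ends of transcripts, owing to oligo(dT) priming, and they were unstranded, so that reads from the overlap cannot be told apart by gene. STAR's stranded counts assign such a read to *mAChR-A* on one strand and to *CG13578* on the other, so that their sum shows how many reads touched *mAChR-A* at all. In cell 3, 298 reads did so, and by STAR all 298 also lay on *CG13578*. A further 147 reads of cell 3 lay on *CG13578* alone. The excluded cell showed the reverse, with 185 of 456 reads shared (40.6%, Wilson 95% interval 36.2 to 45.1), 271 on *mAChR-A* alone and 0 on *CG13578* alone. In cell 4, 0 of 70 reads were shared, which allows a share of up to 4.29%, and *CG13578* had 0 reads of its own. By STAR, cell 3 was thus the only cell with reads on *CG13578* alone. MMQuant, which gives a read on several genes to the group of them, divided the reads otherwise. It assigned 407 reads of the excluded cell to *mAChR-A*, 37 to the pair and 15 to *CG13578*, whereas in cell 3 it assigned 8 to *mAChR-A*, 90 to the pair and 348 to *CG13578*. In cell 3 the 8 reads on *mAChR-A* alone gave an expression of 1.47, already above the threshold, and all 98 reads on *mAChR-A* or the pair gave 4.50, compared with 0 in STAR's count.

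*mAChR-B* (FBgn0037546, chromosome 3R, 8059284 to 8087049, plus strand) reached 287 reads in the excluded cell, or 5.89 (5.72 to 6.06). In cells 1 to 4 it had 1, 0, 1 and 0 reads, a mean of 0.16 ± 0.19 (SD, n = 4). It was at or above 1 RPM in the excluded cell only, at 229 times the RPM of cell 1, although the single read of cell 1 leaves an interval of 40.7 to 9066 for this ratio. The single reads of cells 1 and 3 allow levels of up to 1.42 and 1.37 RPM. *mAChR-C* (FBgn0029909), at 6831397 to 6832684 of chromosome X (minus strand), had 0 reads in all 5 cells and under every way of counting. It lies within the span of *nonC* on the opposite strand and shares no exonic base with it.

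**Figure D3:**
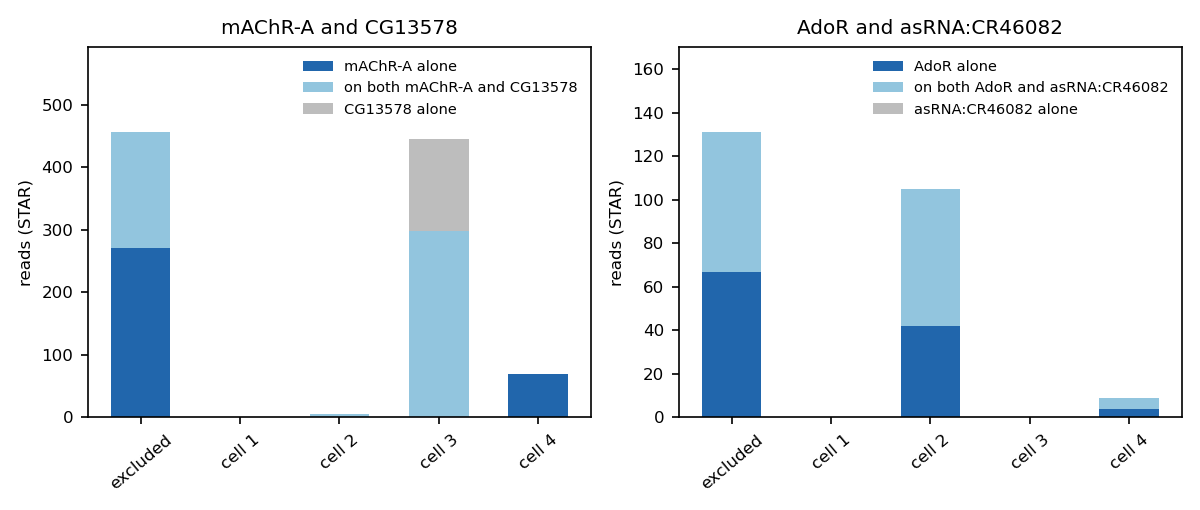
Reads on *mAChR-A* and *CG13578* (left) and on *AdoR* and asRNA:CR46082 (right) in the excluded cell and cells 1 to 4, stacked as reads on the receptor gene alone (dark blue), on both genes (light blue) and on the overlapping gene alone (grey). In cell 3, the 298 reads on *mAChR-A* were all shared, while the 70 reads of cell 4 were not.

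*mGluR* (FBgn0019985, *DmGluRA* in the study) lies at 936819 to 949441 of chromosome 4 (plus strand) and encodes the metabotropic glutamate receptor of the fly. In the excluded cell 2367 reads gave 8.92 (8.86 to 8.97), against 1, 0, 0 and 150 reads in cells 1 to 4. In cell 4 this was 5.12 (4.89 to 5.34), and the excluded cell was 14.3 times higher in RPM (12.1 to 16.9). The intervals of these 2 cells did not overlap each other or those of the remaining cells. By STAR and MMQuant, none of its reads was shared with another gene. The mean over the kept cells was 1.36 ± 2.51 (SD, n = 4), and 0.11 without cell 4. *mtt*, a relative of *mGluR* in the same receptor family, had 641 reads in the excluded cell and 95 in cell 4, and 0 reads in cells 1, 2 and 3. *mGluR* and *mtt* were thus expressed in the same 2 cells. *boss*, the other relative counted and the one with the higher mean in the kept cells, was not, with 4 reads in the excluded cell and 0, 6, 0 and 236 reads in cells 1 to 4. By STAR's unstranded count, the set of cells of *mGluR* was found for 438 other genes (2.51%), *mAChR-A* among them. By MMQuant, *mAChR-A* also passed the threshold in cell 3.

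Of the GABA-B receptor genes, *GABA-B-R1* (FBgn0260446, plus strand of chromosome 2L, 15016331 to 15034704) was the most widely recorded. It had 940 reads in the excluded cell, which is 7.59 (7.49 to 7.68), against 0, 1, 30 and 52 reads in cells 1 to 4. In cells 3 and 4 these reads gave 3.06 (2.58 to 3.52) and 3.67 (3.28 to 4.03), so that the intervals of the 2 cells overlapped. The excluded cell was 16.3 times higher in RPM than cell 4 (12.4 to 22.0). The mean over the kept cells was 1.77 ± 1.86 (SD, n = 4), and 1.14 without cell 4.

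*GABA-B-R2* (FBgn0027575, minus strand of chromosome 3R, 21770333 to 21775840) was the only gene of the group that was higher in a kept cell than in the excluded cell. The excluded cell had 452 reads, which is 6.54 (6.40 to 6.67), against 1, 0, 573 and 0 reads in cells 1 to 4. The 573 reads of cell 3 gave 7.15 (7.03 to 7.26), and RPM in the excluded cell was 0.655 times that of cell 3 (0.577 to 0.742). The mean over the kept cells was 1.87 ± 3.52 (SD, n = 4), and 0.11 without cell 3. Its 141 RPM in cell 3 was the only value of the group above 100 RPM in a kept cell. Cell 3 was also the cell with *Dh44* as a dominant transcript and with the most *Ilp2* reads. *GABA-B-R3* (FBgn0031275, plus strand of chromosome 2L, 749945 to 762399) had 433 reads in the excluded cell, or 6.48 (6.34 to 6.61), and 0 reads in each of cells 1 to 4. Its 88.1 RPM in the excluded cell (80.0 to 96.8) was 101 times the limit of 3 reads in the shallowest kept library. This ratio leaves out the counting error of the 433 reads.

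The subunits of the GABA-B dimer were therefore found together in the excluded cell and in cell 3. In cell 3, *GABA-B-R1* had 30 reads where *GABA-B-R2* had 573. Cell 4 had *GABA-B-R1* with 52 reads and no *GABA-B-R2* read, where the limit of 3 reads is 0.675 RPM. Cells 1 and 2 had 1 read each across the 3 genes.

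*AdoR* (FBgn0039747, chromosome 3R, 30134856 to 30149606, minus strand) is the adenosine receptor gene of the fly. Its 67 reads in the excluded cell gave 3.87 (3.53 to 4.20), against 0, 42, 0 and 4 reads in cells 1 to 4. The 42 reads of cell 2 gave 3.72 (3.29 to 4.13). The excluded cell and cell 2 could not be separated, with a ratio of RPM of 1.12 (0.751 to 1.69). In cell 4 the 4 reads gave 0.901 RPM and an expression of 0.93 (0.32 to 1.72), an interval that includes the threshold. The mean over the kept cells was 1.16 ± 1.76 (SD, n = 4), and 0.31 without cell 2.

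*AdoR* is also subject to overlap, with the antisense RNA gene asRNA:CR46082 on the opposite strand. They share 2120 bases, which are 60.1% of the exonic bases of *AdoR* and 82.4% of those of the antisense gene, and most of which are coding sequence of *AdoR* (1850 bases). Beyond the overlap *AdoR* has 152 bases at its 3′ end. Shared reads were 64 of 131 in the excluded cell (48.9%, 40.5 to 57.3), against 63 of 105 in cell 2 (60.0%, 50.4 to 68.9) and 5 of 9 in cell 4. No cell had a read on asRNA:CR46082 alone, by STAR or by MMQuant. With MMQuant, *AdoR* had 126 reads of its own in the excluded cell, against 91 in cell 2 and 8 in cell 4, where these 8 reads, none of them shared, gave an expression of 1.38, above the threshold. The order of the cells by *AdoR* thus depended on the counting, since with the stranded sum it was higher in cell 2 than in the excluded cell.

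No other gene of the group shared an exonic base with a gene of the count tables. By STAR, 1 read of *GABA-B-R1* in cell 4 and 1 of *GABA-B-R2* in cell 2 were nevertheless ambiguous. The genes *CG31832* and *CG33310* lie within the span of *GABA-B-R1* without exonic overlap. Where one of *mAChR-B*, *mGluR*, *GABA-B-R1*, *GABA-B-R2* and *GABA-B-R3* had at least 50 reads in a cell, both strands held reads. The share on the first strand ran from 51.3% for *GABA-B-R3* in the excluded cell to 64.2% for *GABA-B-R1* in cell 4, with 60.6% for *mAChR-B* in the excluded cell and 61.4% for *GABA-B-R2* in cell 3, compared with 54.4% to 57.1% over all genes in the 5 cells.

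To place the G protein-coupled receptors beside the ligand-gated channels for the same transmitters, lists of channel subunits were counted in the same way. Muscarinic genes accounted for 1 of 12 values at or above 1 RPM in the kept cells (8.33%), against 23 of 40 for 10 nicotinic subunits (57.5%), where all genes had 27.7%. In the excluded cell, 2 of 3 muscarinic and 9 of 10 nicotinic genes were expressed, against 40.7% of all genes. For glutamate, *mGluR* had 1 of 4 values in the kept cells (25%), as against 15 of 60 for 15 channel subunits (25%), both near the share of all genes. For GABA, the GABA-B genes had 3 of 12 values (25%), also near that share, against 6 of 12 for *Rdl*, *Grd* and *Lcch3* (50%). Of these, *Rdl*, the main GABA-gated chloride channel gene, was expressed in all 4 kept cells (7.37 ± 1.57, SD, n = 4). Cell 2, with no muscarinic, glutamate or GABA-B receptor gene at or above 1 RPM, had 8 nicotinic, 5 glutamate and 2 GABA channel genes above it. The genes of a list are not replicates, and the families were not tested against each other. Single cells decided several of these counts. Without cell 4 there were 0 of 9 muscarinic values, 0 of 3 for *mGluR* and 9 of 45 for the glutamate channels, without cell 3 there was 1 of 9 for GABA-B, and without cell 2 there were 15 of 30 for the nicotinic subunits. With the stranded sum, values at or above 1 RPM were 3 of 12 for muscarinic genes, 25 of 40 for nicotinic subunits and 9 of 12 for GABA channels. With MMQuant and shared reads these were 2 of 12, 25 of 40 and 7 of 12. For all genes the shares were then 32.8% and 31.7%. The counts for *mGluR*, the glutamate channels and GABA-B did not change with either.

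**Figure D4:**
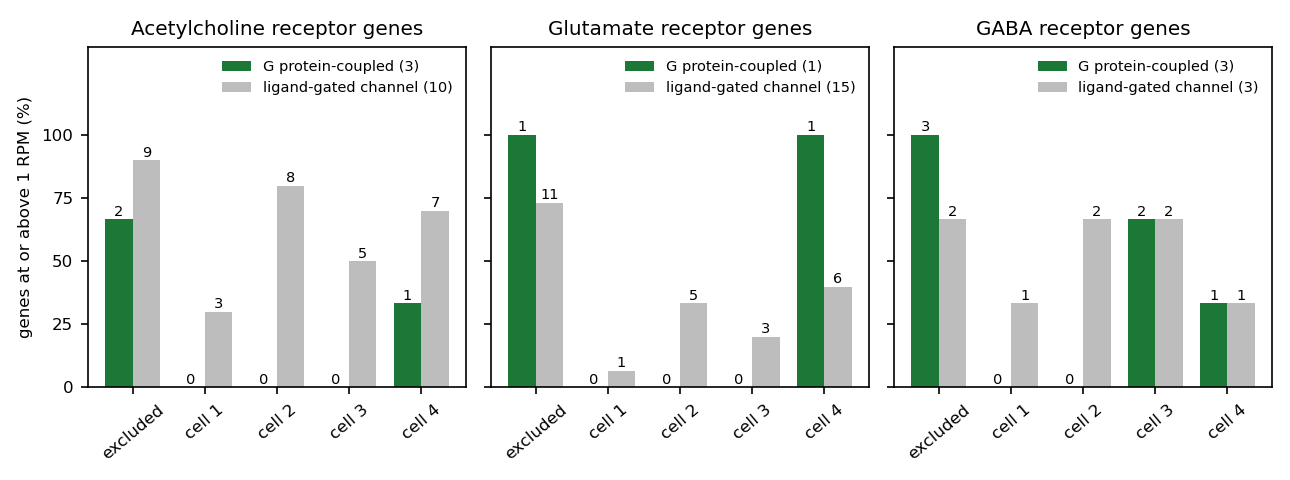
Percentage of the G protein-coupled receptor genes (green) and of the ligand-gated channel genes (grey) for acetylcholine, glutamate and GABA at or above 1 RPM in the excluded cell and cells 1 to 4, with the number of such genes above each bar and the list size in the legend. Cells 1, 2 and 3 had 0 muscarinic genes beside 3, 8 and 5 nicotinic ones.

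Signaling genes downstream of these receptors were counted in the same way, without a test between the lists. Of 11 genes for G protein subunits, 10 were expressed in at least 1 kept cell and 7 in all 4, against 44.3% and 11.3% of all genes. This gave 36 of 44 values (81.8%), against 27.7% for all genes. The 4 with the highest mean were *Ggamma30A* (11.75 ± 0.94), *Gbeta13F* (10.27 ± 0.63), *Ggamma1* (7.89 ± 0.86) and *Galphao* (7.46 ± 0.62, SD, n = 4 each). *Galphao*, the Gαo subunit to which the GABA-B receptor, *mGluR* and *mAChR-B* can couple, was at 10.32 in the excluded cell and at 7.43, 6.59, 7.88 and 7.94 in cells 1 to 4. It was thus present in cells 1 and 2, in which none of these receptor genes was expressed. *Galphaq*, the partner of *mAChR-A*, was at 8.91 in the excluded cell and at 5.55, 6.98, 7.09 and 8.72 in cells 1 to 4, and it also serves phototransduction. *Galphas*, the stimulatory subunit used by *AdoR*, was at 8.52 in the excluded cell and at 2.02, 4.20, 3.73 and 6.44 in cells 1 to 4. *Galphai*, the Gαi subunit gene, had 58 reads in the excluded cell and 61, 18, 0 and 312 reads in cells 1 to 4. *Galphaq*, *Galphas* and *Galphai* were named after their values were seen, for their coupling to the receptors. *Galphaf* had 0 reads in every cell.

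Genes that regulate or end receptor signaling had 17 of 24 values at or above 1 RPM in the kept cells for 6 genes (70.8%). The share for all genes was 27.7%. The β-arrestin gene *krz* was at 6.39 ± 1.86 and the receptor kinase gene *Gprk2* at 5.90 ± 0.48, both in all 4 cells, and *loco*, an RGS protein gene that acts on Gαi/o, was in all 4 as well (2.94 ± 0.52, SD, n = 4). *Gprk1* was at 6.96 in the excluded cell and at 0, 5.27, 0.99 and 4.12 in cells 1 to 4. Among 7 effector genes there were 19 of 28 such values (67.9%), also against 27.7% for all genes. The highest mean was that of *norpA* (8.13 ± 3.85), the phospholipase C of photoreceptors, which had 3743 reads in the excluded cell and 3204, 2453, 18 and 8569 reads in cells 1 to 4. *Irk2*, an inward rectifier potassium channel gene, was in all 4 cells (6.10 ± 2.89). *Plc21C*, the other phospholipase C gene, was at 9.39 in the excluded cell and at 0, 6.12, 8.07 and 4.20 in cells 1 to 4, and the adenylyl cyclase gene *rut* was at 4.33 in the excluded cell and at 0, 4.08, 6.77 and 5.24. Cell 1 had 1 read each of *mAChR-B*, *mGluR* and *GABA-B-R2* and no receptor gene of the group at or above 1 RPM, and it had 0 reads of *Plc21C* and *rut*. Photoreceptor markers summed to 13471 RPM in cell 1, and their part in the levels of *norpA*, *Galphaq* and *Ggamma30A*, which are genes of phototransduction, was not tested.

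**Figure D5:**
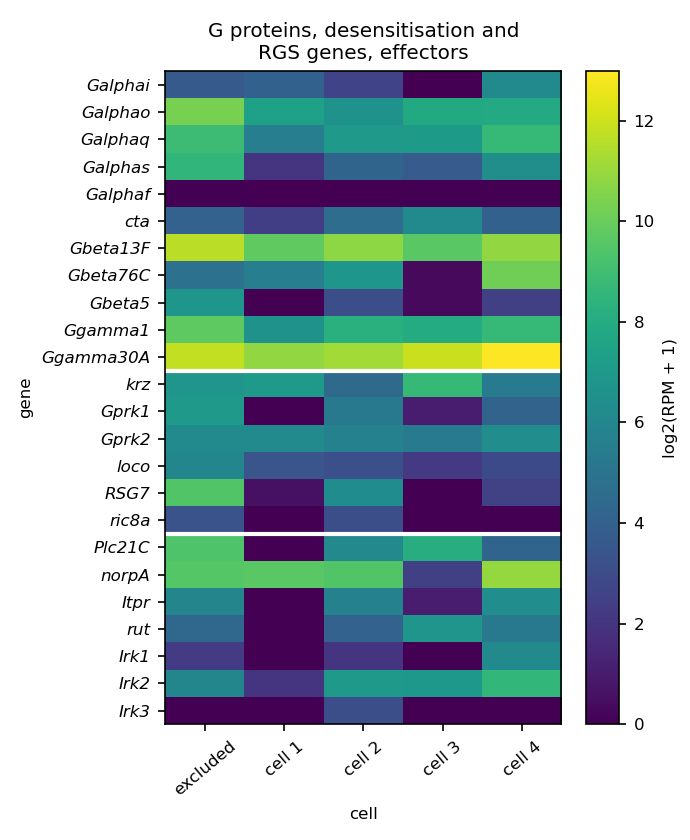
Expression as log2(RPM + 1), by color, of G protein subunit genes (top block), genes of receptor desensitisation and RGS proteins (middle) and effector genes (bottom) in the excluded cell and cells 1 to 4. *Galphao*, *Gbeta13F*, *Ggamma1* and *Ggamma30A* were high in every column, while *Plc21C*, *rut* and *Itpr* were at 0 in cell 1.

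Genes for the supply and clearance of the transmitters were counted as well. Of 9 matched genes, 7 were expressed in at least 1 kept cell, with 19 of 36 values (52.8%). For all genes these shares were 44.3% of genes and 27.7% of values. The highest means were those of the glutamate transporter gene *Eaat1* (8.47 ± 0.78), the acetylcholinesterase gene *Ace* (4.49 ± 1.62), the GABA transporter gene *Gat* (4.46 ± 3.05) and the vesicular glutamate transporter gene *VGlut* (3.73 ± 2.14, SD, n = 4 each). *Eaat1* and *Gat* are also glial genes. *Gat* had 1191 reads in the excluded cell and 311, 309, 0 and 137 reads in cells 1 to 4, where the 7 glial markers, of which *Eaat1* is one, summed to 1733 RPM in the excluded cell and to 1693, 3125, 754 and 4973 RPM in cells 1 to 4, and their part in these levels was not tested. *Ent2*, a nucleoside transporter gene, had 0 reads in the excluded cell and 0, 3, 0 and 0 reads in cells 1 to 4. *Adgf-A*, a secreted adenosine deaminase gene, had 1 read in the excluded cell and 0, 5, 0 and 2 reads in cells 1 to 4. Of the kept cells, *AdoR* had reads in cells 2 and 4, but these counts are too low to relate the genes.

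Finally, the genes whose profile over the 5 cells was nearest to that of each expressed receptor were found by the Euclidean distance in log2(RPM + 1), without scaling by gene length. These names depended on the setting, since of the 15 only 1 was kept with the 4 kept cells alone and 6 with MMQuant and shared reads. For *mAChR-A* these were *GAPcenA*, *Tmtc1* and *CG6654*, at distances of 0.37, 0.38 and 0.38, and 29 genes lay within 1 log2 unit. For *GABA-B-R2* they were *CG15431*, *beat-Ib* and *CG44153* (0.55, 0.62 and 0.80), with 8 genes within 1 unit. For *AdoR* they were *sgl*, the corazonin receptor gene *CrzR* and *CG5439* (0.60, 0.61 and 0.68), with 20 within 1 unit. *CrzR* had an expression of 3.29 in the excluded cell and of 3.75 in cell 2. No gene lay within 1 unit of *mGluR*, for which *grp*, *CG13375* and *CG42322* were nearest (1.06, 1.09 and 1.19), or of *GABA-B-R1*, for which *Dscam4*, *Rlip* and *sli* were nearest (1.07, 1.16 and 1.38). Expression in exactly the same cells as *GABA-B-R2* was found for 148 other genes, as for *AdoR* for 374, and *GABA-B-R1* shared its set of 3 cells with 132.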

How the data were processed

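The authors trimmed the 100 base pair reads of each cell with Trim Galore and PRINSEQ and mapped them to dm6 with STAR and the Ensembl BDGP6 release 87 annotation. They deposited whole-number counts of reads per gene, unstranded and by strand, and MMQuant counts, in which a read on overlapping genes is kept for the group. Neither kind of count was normalized. The 4 opening totals of each STAR table, reads not assigned to a gene, stayed out of the library sizes. These totals imply that 92.6% of the trimmed reads of the excluded cell mapped to a single place, against 60.4% to 85.5% in the kept cells, and that 37.0% of these lay outside exons, against 27.0% to 36.9%. The MMQuant tables carry other column numbers than the labels. They were assigned by sample, and each had a higher Spearman's rho over genes with the STAR table of its own cell (0.919 to 0.963) than with that of another (0.595 to 0.786).

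RPM and log2(RPM + 1) were computed from the unstranded counts with 1 RPM as the threshold, as in the methods of the study, using Python 3.11.15 (scipy 1.17.1, pandas 2.3.3, numpy 2.4.6), with plots from matplotlib 3.10.9. TMM factors came from edgeR 4.0.16. Interval and distance calculations were tested on simulated Poisson counts, which checks the calculation only and does not model the amplification of the RNA. With no assigned conditions and no replicate of a cell, no differential test was run. Replicates are separate cells of unassigned driver genotype, whose spread may be partly technical. Alternatives were tried (other denominators, stranded and MMQuant counts, thinned libraries, thresholds of 10 RPM, 100 RPM and 1 read, a pseudocount of 0.1 RPM, all 5 cells, each cell left out). The receptor genes and gene lists were chosen with earlier results of these data known. Named genes were the 8 receptor genes, the genes overlapping them, the 3 nearest genes of each expressed receptor and up to 4 genes of a list with the highest mean, beside those named after their values were seen. The *Plc21C*, *rut*, *Gprk1*, *Itpr*, *Ent2* and *Adgf-A* values belong to the last kind, as do those of *mtt*, *boss*, *Galphaf* and the marker genes given singly. *VAChT* was not matched to an identifier, and *para* was matched by the identifier in the study. Positions are those of Ensembl release 115, which has dm6 coordinates but is a later annotation than the one the authors counted with. Sequences of the receptors were not used here.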

Additional observations from a re-analysis of the deposited data

Results flagged for a closer look

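In 3 of the receptor genes 1 kept cell lay far from the other 3, the gap to its nearest neighbor, as a part of the range, being above Dixon's 95% critical value. These were *mAChR-A* in cell 4, with an expression of 4.07, *mGluR* in cell 4, with 5.12, and *GABA-B-R2* in cell 3, with 7.15. The flag of *mAChR-A* rests on STAR's unstranded count, which leaves out its 298 shared reads in cell 3. With MMQuant and shared reads, *mAChR-A* was at 4.50 in cell 3 and at 3.91 in cell 4. Chance flags about 1 in 20 groups of normally spread values, but among all genes expressed in at least 1 kept cell 26.4% had such a gap in either direction, so that such a pattern is common in these libraries. In cell 4, neuronal markers summed to 4995 RPM and photoreceptor markers to 46076 RPM, and in cell 3 to 5411 and 1981 RPM. Their part in these values was not tested.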

How the results depend on the processing

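The 6 values at or above 1 RPM and the 5 genes expressed in at least 1 kept cell were the same in number with all uniquely mapped reads, TMM factors or median-of-ratios size factors as the denominator and with thinned libraries. At 10 RPM 5 values in 5 genes were left. A threshold of 100 RPM left 1 value in 1 gene (12.5% of the genes, against 14.5% of all genes). The share of values, below that of all genes in the main count, was above it with a threshold of 1 read, at 13 values (40.6% against 34.0%), and with all 5 cells, at 13 of 40 (32.5% against 30.3%). Leaving out each cell gave 3 to 6 values and 3 to 5 genes, the lowest without cell 4, where 3 of 8 genes stood against 39.4% of all genes. Stranded sums gave 9 values and MMQuant 8, through *mAChR-A* and *AdoR*. The 6 genes higher in the excluded cell became 5 with the stranded sum or the neuronal denominator and were 6 to 7 when each kept cell was left out. The alternatives to this count and to those of the receptor and channel families were chosen after seeing the data. Of the 72 alternative means of single genes other than those that left out a cell, 65 stayed within 1 SD, and the other 7 came from the pseudocount of 0.1 RPM or from all 5 cells. This SD, the spread between the kept cells, exceeded the mean of each gene with a read in them, so that few changes could leave it. The *mAChR-A* mean counted as within 1 SD although it rose from 1.11 to 2.80 with the stranded sum. *mAChR-C* and *GABA-B-R3*, with 0 reads in the kept cells, stayed at 0 in most alternatives by construction. The means without a cell cannot leave 1 SD by construction, and the lowest is given with each of the 5 genes expressed in a kept cell. The nearest genes were unstable. Of 15 named, 13 were kept with all uniquely mapped reads, 6 with MMQuant and shared reads, 7 with a pseudocount of 0.1 RPM and 1 with the kept cells only. No paired analysis was possible because the labels give no conditions to pair. Identity between the receptor proteins was not run. Depth limited detection to levels of 0.611 to 0.869 RPM by the limit of 3 reads per library. By the exact Poisson intervals of 0 reads, it did so to 0.751 to 1.07 RPM.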
